A study of Rattus norvegicus with 8 samples.

Results

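Cyclins and the kinases they switch on drive a cell from one phase of its division cycle to the next. D-type cyclins (Ccnd1, Ccnd2 and Ccnd3) partner Cdk4 in the first gap phase, Cdk2 works at the start of DNA synthesis, and Cdk1 with cyclin B1 (Ccnb1) brings the cell into mitosis, together with the polo-like kinase Plk1. Cdkn1b (p27) inhibits these kinases, and Mxd3 is a partner of the transcription factor Max that competes with Myc. PC12 cells, which come from a tumour of the rat adrenal medulla, divide in culture and leave the cycle when nerve growth factor turns them into neuron-like cells. The members described here are the probe sets that the array's annotation assigns to 1 of these 10 genes alone: 20 of the 8799 probe sets of the array, and 10 of the 4737 genes with a probe set of their own.

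The induced group was 4 samples of the PC12 line Htt14A2.5 treated with ponasterone (PA), a steroid inducer, for 48 h, and the uninduced group was 4 samples of the same line that the titles mark as without PA. Both groups carry the same stable transgene, a mutant fragment of human huntingtin (exon 1, truncated) that can be switched on, in 1 line, and each sample was read on 1 Affymetrix array. The free-text descriptions mention induction for all 8 samples, so the titles alone set the groups. Ponasterone and any induction of the transgene by it differ between the groups together and cannot be told apart. The transgene's own transcript was not analysed here. Nothing in the labels says that the replicates were separate cultures, so p-values measure the spread between these samples, which may be technical.

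All values below are the authors' scaled linear signals, with medians of 97.5 to 134.9 per array. Signal differences between groups are log2 differences (induced minus uninduced) after adding 7, fitted with limma over 6129 probe sets, and a probe set is "called" when its Benjamini-Hochberg adjusted p over all of them is under 0.05. The fit called 433 of them, 251 higher and 182 lower (58.0% higher). With each array centred on its median it called 230, 167 higher and 63 lower (72.6% higher). As a guide to low signal, the 95th percentile of 38 control probe sets for other species or the reverse strand was 102 to 137 on the induced arrays and 128 to 183 on the uninduced arrays. The 3' to 5' signal ratios of the Gapdh controls were 0.39 to 0.56 (log2) on induced arrays and 0.20 to 0.50 on uninduced arrays, those of beta-actin -0.67 to 0.57 and 0.076 to 0.57, and those of hexokinase 0.50 to 1.14 and 0.87 to 1.37. Induced replicate 4 stood apart on the first principal component (25.4% of the variance), at 34.5 where the next array was at 12.8; without it the member calls numbered 4 (Cdk1, the brighter Ccnb1 probe set, Plk1 and Mxd3). Within each group this component rose with the median signal of the array, and the groups mixed on it. They separated on the second component (23.5%), at 9.7 to 22.1 in induced and -19.3 to -12.5 in uninduced samples. Of 7 chromaffin markers with a probe set, Chgb, Phox2a and Ret lay above the low-signal percentile on all 8 arrays and Slc18a1 on 7. Of the catecholamine enzymes, Th did so on 1 array and Dbh and Ddc on 0. The summed signal of the 7 markers was 15927 to 17234 in induced and 15982 to 19791 in uninduced samples. Most of that sum was Chgb, which differed by 0.16 (log2, limma adjusted p = 0.50), while Phox2a fell by 0.70 (3552 in induced and 5765 in uninduced cells, adjusted p = 0.00048) and Ret rose by 0.96 (651 in induced and 325 in uninduced cells, adjusted p = 0.0041). Of markers of other cells, 2 of 7 for fibroblasts (Col1a1 and Col3a1), 0 of 2 for Schwann cells and glia and 1 of 4 for leukocytes (Cd14) lay above that percentile on all 8 arrays. Their sums were 1596 to 2035 in induced against 1429 to 1814 in uninduced samples for fibroblasts, 27.0 to 70.5 against 53.0 to 67.5 for Schwann cells and glia, and 238 to 517 against 221 to 452 for leukocytes; the part of these markers in the results below was not tested.

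The mitotic kinases Cdk1 and Plk1, cyclin B1, Cdk4, 1 of the 2 Cdk2 probe sets and Mxd3 fell in induced cells. No tested probe set of the 10 genes was called higher. Of the 20 probe sets, 17 (9 genes) passed the filter on low signals, and 7 of the 17, for 6 genes, were called, all of them lower. Over all tested probe sets 7.06% were called, 2.97% lower and 4.1% higher. These member calls depended on the processing. With median centring 1 of the 17 was called (Cdk1), beside 230 of all 6129 probe sets. Without the intensity trend 2 were called (Cdk1 and the brighter Ccnb1 probe set), beside 279. The groups did not overlap in the same 7 probe sets, with all 4 induced arrays below all 4 uninduced arrays; over all tested probe sets 7.11% had the induced arrays all lower and 6.48% all higher. The median log2 difference of the 17 was -0.30, against -0.048 for all tested probe sets. The members were chosen with earlier results of these data known, so these comparisons describe them and are not a test. The D-type cyclins were not called by any of their 9 tested probe sets, and Cdkn1b was too dim to test. In these bulk samples, fewer dividing cells and less of each transcript per dividing cell cannot be told apart.

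**Figure D1:**
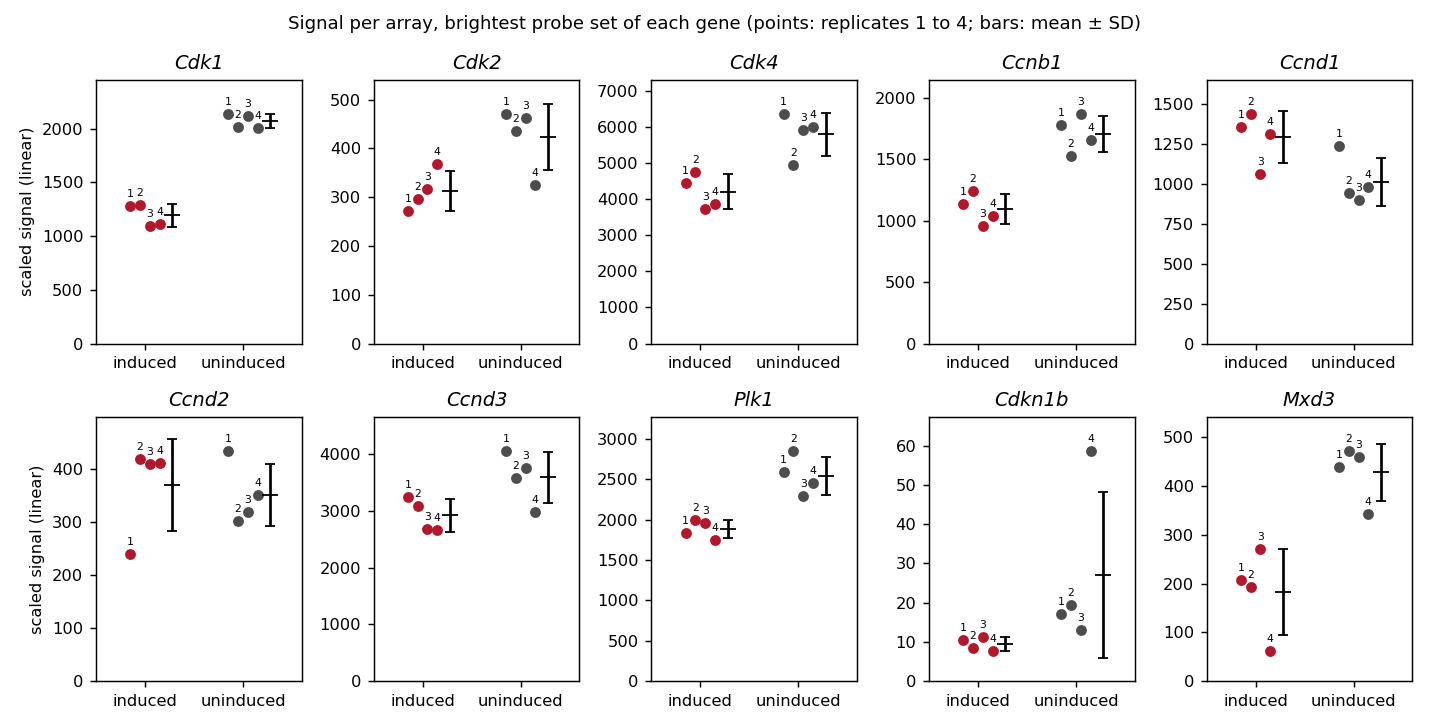
Scaled signal (linear axis from 0) of the brightest probe set of each of the 10 genes on each array, induced left and uninduced right, with points numbered by replicate and bars for the mean ± SD (n = 4). Cdk1, Cdk4, Ccnb1, Plk1 and Mxd3 have every induced point below every uninduced point; so does Cdkn1b, whose signals of 7.60 to 58.6 lie within the low-signal controls.

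Cdk1, the kinase that triggers mitosis, had the lowest p of the members. Its single probe set (X60767mRNA_s_at) read 1282, 1287, 1091 and 1109 in induced replicates 1 to 4, against 2135, 2017, 2116 and 2006 in uninduced replicates 1 to 4. The highest induced signal was thus well below the lowest uninduced one, and the arrays within each group lay close together. The means were 1192 ± 107 and 2068 ± 66.2 (SD, n = 4 each), a log2 difference of -0.79 ± 0.093 (SE), or 0.576 times the uninduced level (limma adjusted p = 0.00023). This call held under all 19 alternative settings tried, with adjusted p up to 0.0245.

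Ccnb1, the cyclin that activates Cdk1 at the entry into mitosis, has 2 probe sets, and both were called lower. The brighter (X64589_at) read 1138, 1239, 956 and 1036 in induced replicates 1 to 4, against 1776, 1524, 1866 and 1659 in uninduced replicates 1 to 4. Every induced array was below every uninduced array. The log2 difference was -0.64 ± 0.11 (limma adjusted p = 0.0034), called under 18 of 19 alternatives; the exception was median centring (adjusted p = 0.0949). The dimmer one (rc_AA998164_s_at), with means of 281 ± 50.4 in induced and 454 ± 60.2 in uninduced cells, gave a like difference of -0.69 ± 0.17 (adjusted p = 0.027), but the call was lost without induced replicate 2 or 4 or uninduced replicate 1, 2 or 4 (adjusted p up to 0.0730), with median centring (adjusted p = 0.124) and without the intensity trend.

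Plk1, a polo-like kinase of centrosomes, spindle and cytokinesis, moved less. Its signals (U10188_at) were 1830, 1997, 1956 and 1753 in induced replicates 1 to 4, against 2590, 2845, 2290 and 2457 in uninduced replicates 1 to 4. The groups did not overlap, and the uninduced arrays spread more widely, with means of 1884 ± 112 and 2545 ± 234 (SD, n = 4 each). The log2 difference was -0.43 ± 0.094 (limma adjusted p = 0.015). Without uninduced replicate 2, the brightest of the 8 arrays for this gene, it was -0.38 and no longer called (adjusted p = 0.0588), and median centring also ended the call (adjusted p = 0.260, at a difference of -0.39), as did leaving out the intensity trend. Leaving out both arrays numbered 2 ended the call too (limma adjusted p = 0.102).

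The 250 bases before the annotated start of 4 of the genes that fell are shown because the mitotic genes among them fell together, with Cdk4 beside them. The sequences are from RefSeq's rat assembly GRCr8, are written 5′ to 3′ on the gene's strand and end at the base before the start; 8 of the 10 genes were matched in the table by symbol. Capitals mark, on either strand, CCAAT (the CCAAT box), TTTGAA or TTCGAA (the cell cycle homology region), TTCCCGC or TTGGCGC (E2F type) and CACGTG (the E-box bound by Max complexes, added after the sequences were seen); no marked stretches overlap.
Cdk1, chr20:19265043-19265292, plus strand: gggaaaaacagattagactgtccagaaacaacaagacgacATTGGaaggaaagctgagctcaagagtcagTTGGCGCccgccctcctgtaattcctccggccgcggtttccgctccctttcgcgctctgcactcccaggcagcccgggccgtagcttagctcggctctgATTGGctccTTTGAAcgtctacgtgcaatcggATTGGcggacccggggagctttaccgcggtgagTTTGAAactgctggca
Ccnb1, chr2:33655226-33655475, minus strand: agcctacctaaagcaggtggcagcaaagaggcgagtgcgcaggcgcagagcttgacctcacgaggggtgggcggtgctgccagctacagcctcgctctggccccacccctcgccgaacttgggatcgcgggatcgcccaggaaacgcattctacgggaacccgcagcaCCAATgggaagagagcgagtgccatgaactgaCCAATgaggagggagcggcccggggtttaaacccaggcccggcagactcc
Plk1, chr1:186147408-186147657, plus strand: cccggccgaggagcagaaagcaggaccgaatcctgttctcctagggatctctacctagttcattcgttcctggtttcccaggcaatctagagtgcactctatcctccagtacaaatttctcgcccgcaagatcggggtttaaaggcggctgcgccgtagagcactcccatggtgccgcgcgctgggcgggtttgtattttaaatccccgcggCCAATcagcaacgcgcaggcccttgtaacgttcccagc
Cdk4, chr7:64771203-64771452, plus strand: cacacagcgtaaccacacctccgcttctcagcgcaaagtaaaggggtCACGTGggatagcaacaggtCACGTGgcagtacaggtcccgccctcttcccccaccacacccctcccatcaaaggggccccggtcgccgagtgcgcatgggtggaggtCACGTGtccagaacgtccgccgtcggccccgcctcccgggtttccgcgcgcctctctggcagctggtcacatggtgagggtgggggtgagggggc

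Cdk1 has 3 CCAAT boxes, at 210, 81 and 49 bases before the start, 2 matches to the cell cycle homology region and 1 of E2F type. Ccnb1 has 2 CCAAT boxes, at 82 and 50 bases, and Plk1 has 1, at 38 bases. Cdk4 has 3 E-boxes and no match to the other motifs. Among the 4 other members with a promoter in the table, Cdk2, Mxd3 and Ccnd3 each have 1 CCAAT box and Cdkn1b has 2, and Cdk2 and Mxd3 each have 1 E2F-type match. Of 33469 rat promoters of the same length, 34.0% hold a CCAAT box, 17.4% a cell cycle homology match, 5% an E2F-type match and 5.59% an E-box. These matches describe the sequence, and no binding was measured.

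Cdk4, the kinase partner of the D-type cyclins, fell in induced cells. It read 4445, 4764, 3732 and 3867 (L11007_at) in induced replicates 1 to 4, against 6357, 4948, 5909 and 5989 in uninduced replicates 1 to 4. The closest pair, induced replicate 2 and uninduced replicate 2, differed little, and the groups did not overlap. The log2 difference was -0.47 ± 0.11 (limma adjusted p = 0.020). The call was lost without induced replicate 3 or 4 or uninduced replicate 1 or 3 (adjusted p up to 0.0650), with median centring (adjusted p = 0.282) and without the intensity trend.

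The 2 probe sets of Cdk2, a kinase of the start of DNA synthesis, differed in what they showed. The brighter (D28753_i_at) read 273, 296, 316 and 369 in induced replicates 1 to 4, against 470, 436, 463 and 326 in uninduced replicates 1 to 4. Induced replicate 4 lay above uninduced replicate 4, so the groups overlapped, and the difference of -0.42 ± 0.16 was not called (limma adjusted p = 0.18). The dimmer (D28754_s_at) read 222, 158, 81.2 and 65.4 in induced replicates 1 to 4, against 293, 328, 356 and 225 in uninduced replicates 1 to 4. Its groups did not overlap, by a margin of 222.3 in induced replicate 1 to 224.8 in uninduced replicate 4, and induced replicates 3 and 4 lay under the low-signal percentile of their arrays (110 and 137). The difference was -1.28 ± 0.33 (adjusted p = 0.037), and the call was lost without induced replicate 3 or 4 or uninduced replicate 1, 2 or 3 (adjusted p up to 0.116). It was also lost without the filter or the trend and without both arrays numbered 2. Median centring and quantile normalization lost it too (adjusted p over all alternatives up to 0.135). The difference between the 2 probe sets was not tested.

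Mxd3, which pairs with Max and represses transcription, fell in induced cells. Its probe set (U45986_at) read 208, 193, 271 and 61.3 in induced replicates 1 to 4, against 439, 471, 460 and 343 in uninduced replicates 1 to 4. The groups did not overlap, and induced replicate 4 stood well below the other induced arrays and under the low-signal percentile of its array (137). The difference was -1.35 ± 0.35 (limma adjusted p = 0.038). Without induced replicate 4 it was -0.92 with a smaller adjusted p of 0.00984, but the call was lost without induced replicate 1 or 2 or any 1 of the uninduced replicates (adjusted p up to 0.112), and without the filter or the trend, with median centring and with quantile normalization. Without both arrays numbered 2 the call was lost as well (limma adjusted p = 0.150).

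**Figure D2:**
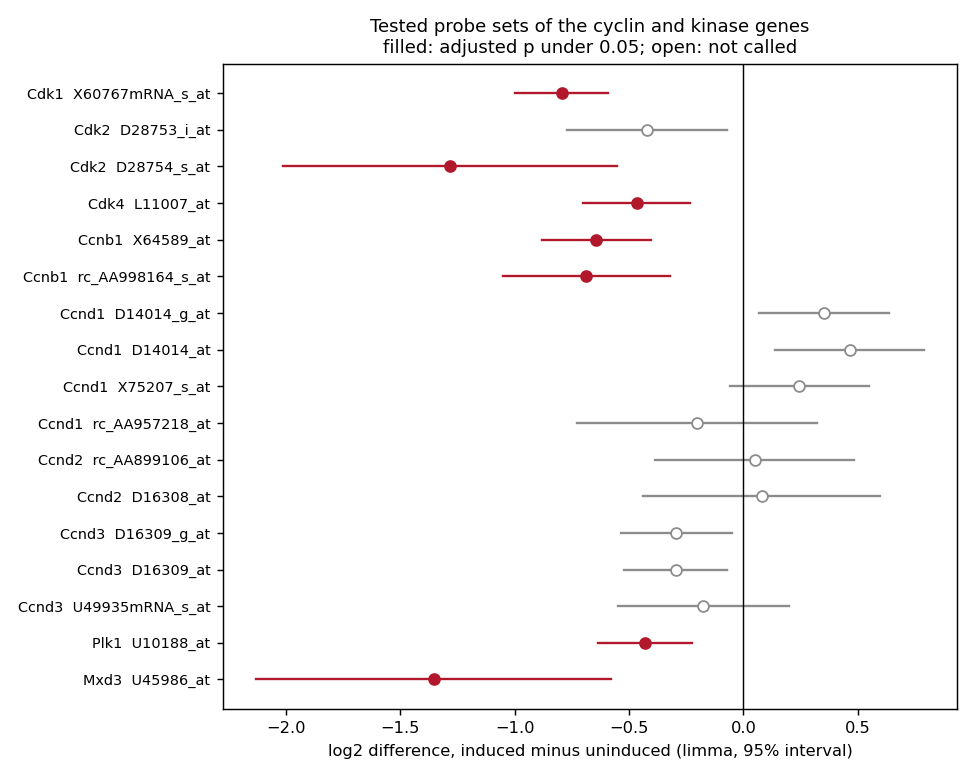
Log2 difference (induced minus uninduced) with its 95% interval from limma for the 17 tested probe sets, filled where the adjusted p is under 0.05. The 7 filled points lie between -1.35 and -0.43; the intervals of the D-type cyclin probe sets reach from -0.73 to 0.79.

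The D-type cyclins link growth signals to Cdk4, and 0 of their 9 tested probe sets were called. Ccnd1 has 5 probe sets, of which 4 were tested. The brightest (D14014_g_at) read 1359, 1437, 1065 and 1314 in induced replicates 1 to 4, against 1235, 941, 896 and 979 in uninduced replicates 1 to 4. Only induced replicate 3, which lay below uninduced replicate 1, overlapped the uninduced range, and the difference was 0.35 (95% interval 0.069 to 0.64, limma adjusted p = 0.16). A second (D14014_at), named for the same sequence record, read 1336, 1228, 1145 and 1197 in induced replicates 1 to 4, against 1148, 767, 996 and 700 in uninduced replicates 1 to 4. Here induced replicate 3 and uninduced replicate 1 differed by less than 3 signal units, and the difference was 0.46 ± 0.15 (adjusted p = 0.097). Without uninduced replicate 1 it was 0.59 and called (adjusted p = 0.0291). The third (X75207_s_at) differed by 0.24 (adjusted p = 0.40) and the fourth (rc_AA957218_at) by -0.20 (adjusted p = 0.76), so the 4 tested probe sets of this gene were not of 1 sign. The fifth (rc_AI231257_at) read 6.20 to 36.1 in induced and 8.5 to 36.0 in uninduced samples and was below the filter.

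Ccnd2 showed no called difference, with wide intervals. Its brighter probe set (rc_AA899106_at) read 239, 419, 409 and 411 in induced replicates 1 to 4, against 433, 302, 318 and 352 in uninduced replicates 1 to 4, and the other (D16308_at) read 202, 291, 288 and 205 in induced replicates 1 to 4, against 368, 211, 186 and 191 in uninduced replicates 1 to 4. The groups overlapped in both, and induced replicate 1 was the lowest induced array in each. The differences were 0.049 (95% interval -0.39 to 0.49, limma adjusted p = 0.94) and 0.080 (-0.44 to 0.60, adjusted p = 0.93), and each kept its sign in 14 of 19 alternatives.

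Ccnd3 had 3 tested probe sets, all with negative differences and none called. The brightest (D16309_g_at) read 3244, 3088, 2685 and 2670 in induced replicates 1 to 4, against 4048, 3575, 3748 and 2988 in uninduced replicates 1 to 4. The overlap came from uninduced replicate 4, which lay below 2 induced arrays. The difference was -0.29 ± 0.11 (limma adjusted p = 0.17), and without uninduced replicate 4 it was -0.38 and called (adjusted p = 0.0472). The second (D16309_at) differed by -0.30 ± 0.10 (adjusted p = 0.13) and the third (U49935mRNA_s_at) by -0.18 ± 0.17 (adjusted p = 0.68). The fourth (U49935mRNA_r_at) read 13.8 to 49.2 in induced and 15.5 to 25.2 in uninduced samples and was not tested.

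Cdkn1b, the p27 inhibitor of cyclin-dependent kinases, had 1 probe set (D83792_at), under the filter on low signals. It read 10.5, 8.30, 11.2 and 7.60 in induced replicates 1 to 4, against 17.1, 19.4, 13.1 and 58.6 in uninduced replicates 1 to 4. All 8 values lay under the low-signal percentile of their arrays, so no fold is given.

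To ask whether members of 1 family changed unequally, the log2 ratio of 2 genes was taken within each array, which does not depend on array scaling, and compared between the groups by a two-sided exact permutation test over the 70 splits of the 8 arrays. The Cdk1 to Cdk4 ratio was -1.81 ± 0.051 in induced and -1.48 ± 0.13 in uninduced samples (SD, n = 4 each), a difference of -0.33 (interval by inverting the test, -0.59 to -0.19), with no overlap. The Ccnd1 to Ccnd3 ratio was -1.17 ± 0.14 in induced and -1.82 ± 0.20 in uninduced samples, a difference of 0.65 (0.28 to 1.04), also with no overlap. Each had an exact permutation p of 0.0286, the smallest these splits can give, and a p of 0.0857 after Benjamini-Hochberg adjustment over the 6 pairs compared, so 0 pairs passed adjusted and 2 passed unadjusted. An adjusted p under 0.05 was out of reach unless more than 2 of the 6 pairs separated fully. The 0 adjusted passes therefore do not show equal changes. The other 4 pairs overlapped: the differences were -0.37 (-1.03 to 0.039) for Cdk1 to Cdk2, 0.045 (-0.51 to 0.81) for Cdk2 to Cdk4, 0.30 (-0.25 to 1.02) for Ccnd1 to Ccnd2 and 0.34 (-0.66 to 0.85) for Ccnd2 to Ccnd3. With the mean of a gene's tested probe sets in place of the brightest, the Cdk1 to Cdk2 difference turned to 0.057 and the Cdk2 to Cdk4 difference to -0.39, neither passing the test. The intervals of these other 4 pairs are wide enough to hold both equal and clearly unequal changes. Those of Cdk1 to Cdk4 and Ccnd1 to Ccnd3 leave out 0, but they are not adjusted for the 6 pairs compared.

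**Figure D3:**
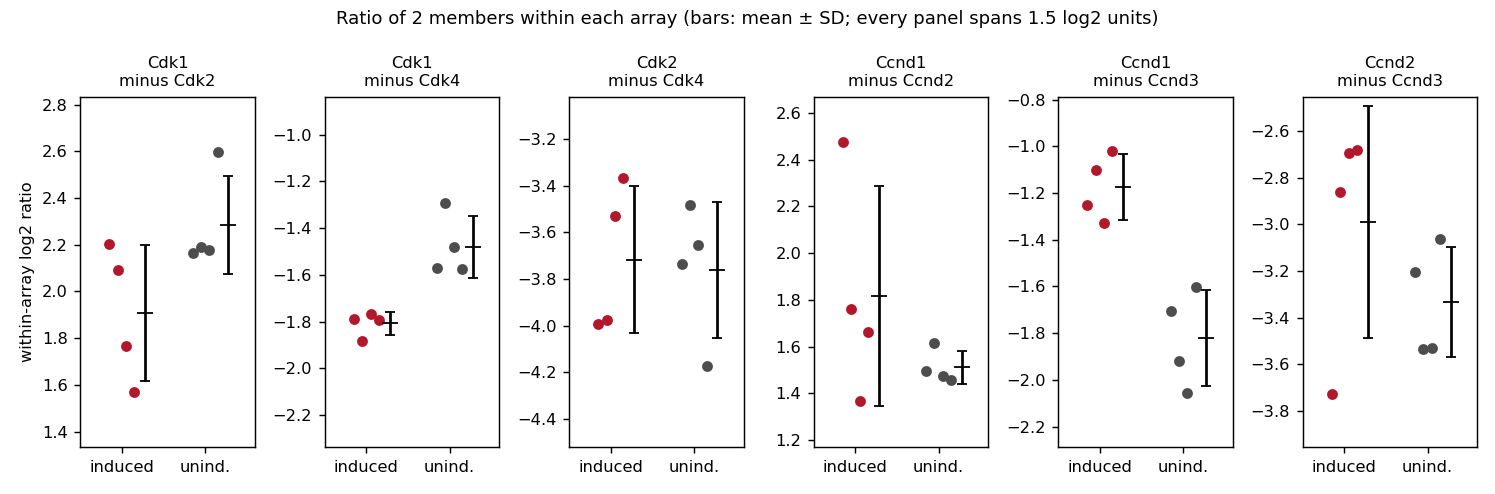
Within-array log2 ratio of the brightest probe sets of 2 genes for the 6 pairs, induced left and uninduced right, with bars for the mean ± SD (n = 4) and every panel spanning 1.5 log2 units. The groups separate for Cdk1 minus Cdk4 (induced lower) and Ccnd1 minus Ccnd3 (induced higher) and overlap in the other 4; a ratio compares changes, since levels of different probe sets are not comparable.

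The other genes of the division cycle were read from lists by role, with 1 probe set per gene, the brightest. Of 51 tested genes, 14 fell, 2 rose and 35 were not called, at a median log2 difference of -0.33; over all 3623 tested genes 2.90% were called lower and 4.31% higher, at a median of -0.054. With median centring 8 fell and 1 rose, and without both arrays numbered 2 the counts were 9 and 1. The lists were chosen with earlier results of these data known, so these counts describe them and are not a test. The falls lay in 3 lists. Of 16 DNA replication genes 9 fell and 0 rose (median -0.62). The uracil-DNA glycosylase Ung fell by 0.92 ± 0.13 (limma adjusted p = 0.00079), with 459 in induced and 873 in uninduced cells, and the helicase subunit Mcm6 fell by 0.64 ± 0.10; Mcm7, another helicase subunit, and the polymerase subunit Pold1 also fell, with log2 differences of -0.77 and -1.41. Of 10 mitosis and chromosome genes 4 fell and 0 rose (median -0.72). Racgap1, a regulator of cytokinesis, fell by 0.75 ± 0.094 (adjusted p = 0.00039), Pttg1, the securin that guards sister chromatids, by 0.86 ± 0.12, with 1899 in induced and 3419 in uninduced cells, and the hyaluronan receptor and spindle protein Hmmr by 0.68 ± 0.15, beside the topoisomerase Top2a (log2 difference -0.94). Of 4 polo, aurora and checkpoint genes 1 fell, the spindle checkpoint kinase Bub1b (log2 difference -0.94 ± 0.15, adjusted p = 0.0022, with a second probe set at -0.15, adjusted p = 0.93). The others differed by -0.61 (Plk4, adjusted p = 0.061), -0.53 (Aurkb) and -0.31 (Cdc20).

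The 2 genes that rose were the p53-responsive cyclin Ccng1, by 0.52 ± 0.11 (8988 in induced and 6239 in uninduced cells, limma adjusted p = 0.015), and the kinase inhibitor Cdkn1a (p21), by 0.98 ± 0.15 (1547 in induced and 779 in uninduced cells, adjusted p = 0.0015). The Ccng1 call was lost without induced replicate 1 or 2, without both arrays numbered 2, with either median centring and without the intensity trend; Cdkn1a was called in each of these. In the lists other than replication, mitosis and checkpoint no further gene was called. Ccne1, the cyclin partner of Cdk2, differed by -0.34 (adjusted p = 0.16), and by 0.042 in its dimmer probe set. Of 6 other cyclin-dependent kinases 0 were called, the lowest p being those of Cdk11b (-0.85, adjusted p = 0.36), Cdk5 (-0.20), Cdk7 (0.23) and Cdk18 (-0.27). Among the other inhibitors Cdkn1c and Cdkn2b differed by -0.029 and -0.096. Cdc25b, a phosphatase that activates Cdk1, differed by -0.27 (0.17 in a dimmer probe set) and Wee1, a kinase that restrains it, by -0.32. Rb1, Rbl2 and E2f5 differed by -0.38, -0.27 and 0.033. In the Myc and Max network, which Mxd3 belongs to, Mxi1 differed by -0.33 (with a dimmer probe set at -1.36, adjusted p = 0.096, all induced arrays lower), Myc by 0.63, Mxd4 by -0.18 and Max by -0.23, and 0 of 5 genes were called (adjusted p of the brightest probe sets from 0.32).

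**Figure D4:**
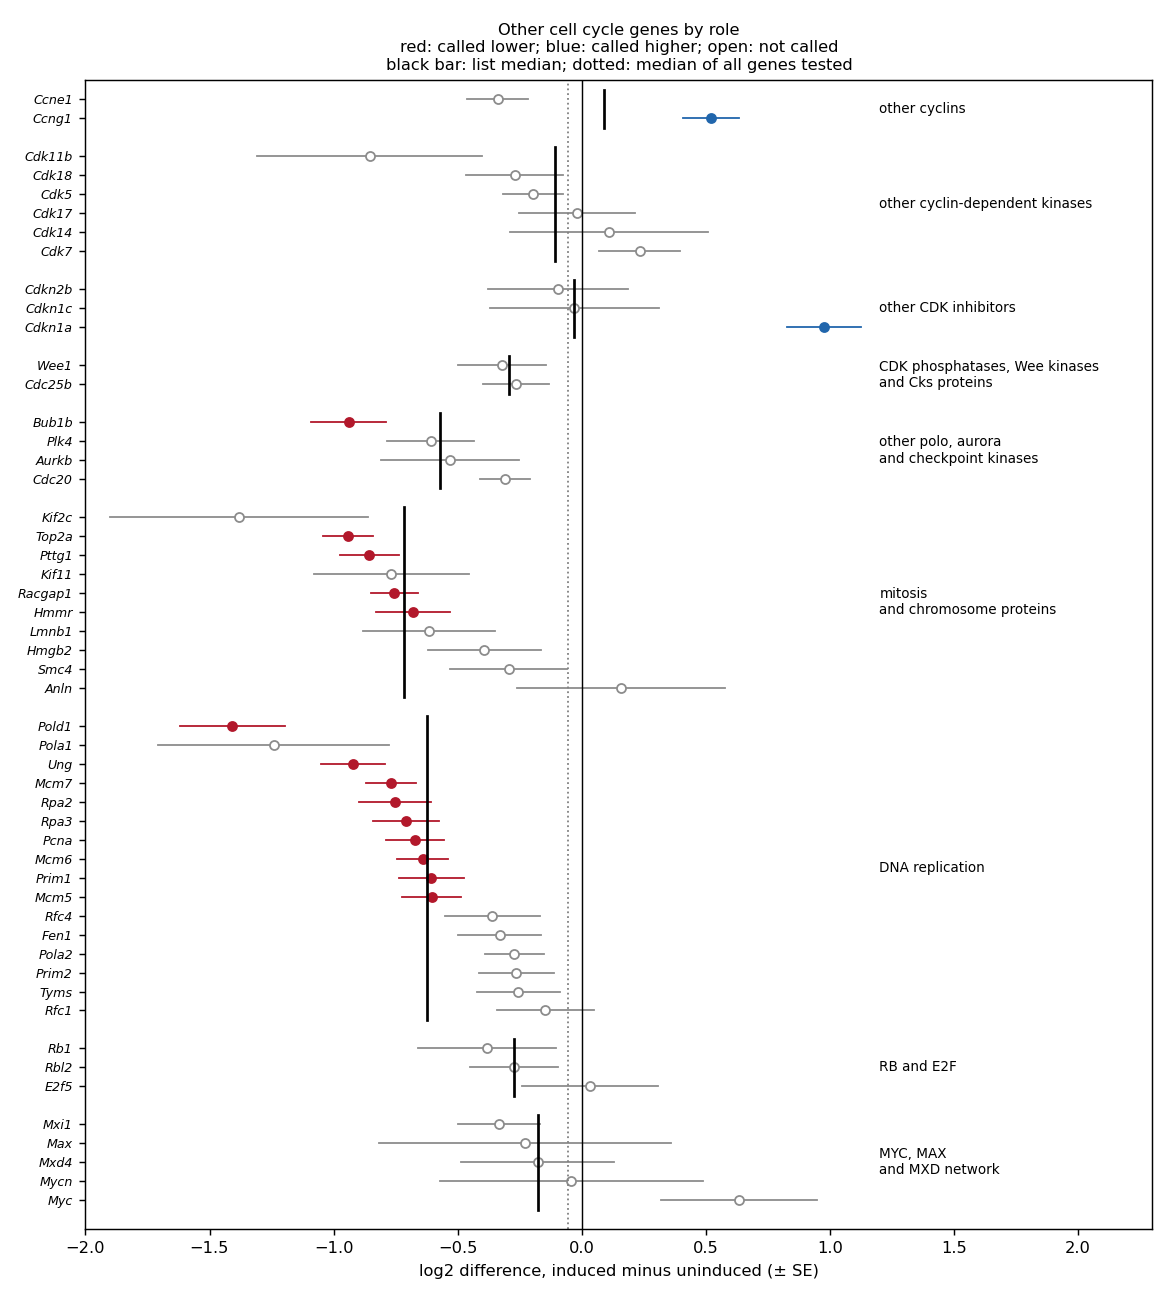
Log2 difference (induced minus uninduced, with its SE) of the 51 other cell cycle genes tested, grouped by role, red where called lower, blue where called higher and open where not called; black bars are list medians and the dotted line the median of all tested genes. The red points lie in the DNA replication, mitosis and checkpoint lists, and the blue ones are Ccng1 and Cdkn1a.

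As a description of which patterns over the 8 arrays were most like those of the called members, log2 values were centred for each gene and the root-mean-square difference between 2 genes was taken. The pattern most like that of Cdk1 was that of Dnmt1, the maintenance DNA methyltransferase, at 0.10 log2 units, followed by the dUTPase Dut (0.11) and the GABA receptor subunit Gabra3 (0.11), where Cdk1 itself varied by 0.41. Dnmt1 and Dut fell by 0.72 and 0.88, and Gabra3 differed by -0.77 (limma adjusted p = 0.084). Ccnb1 also had Dnmt1 nearest (0.076), then Id1 (0.099) and Cfap97 (0.12). For Plk1 the nearest were Parp2 (0.034), Azi2 (0.078) and Axin1 (0.082). For Cdk4 they were Emb (0.079), Trap1 (0.093) and Id3 (0.095), and for Mxd3 Ssbp2 (0.28), Pigf (0.32) and Rnf112 (0.33). Ccnb1, Plk1, Cdk4 and Mxd3 themselves varied by 0.34, 0.24, 0.27 and 0.88. Id1, Id3, Pigf and Rnf112 were called lower (limma adjusted p = 0.0023, 0.042, 0.015 and 0.036). Not called were Cfap97 (limma adjusted p = 0.17), Parp2 (0.17), Azi2 (0.29), Axin1 (0.11), Emb (0.055), Trap1 (0.10) and Ssbp2 (0.22). All of these patterns span the same arrays and both groups, so closeness here includes the difference between the groups.

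**Figure D5:**
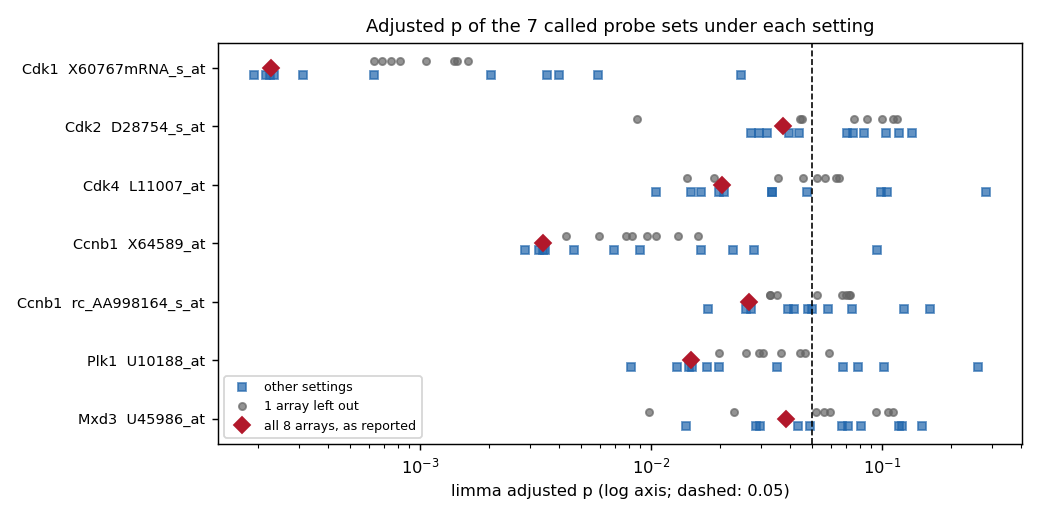
Adjusted p (log axis, dashed line at 0.05) of the 7 called probe sets with all 8 arrays (diamonds), with 1 array left out (circles) and under the other settings (squares). Cdk1 stays left of the line throughout and the brighter Ccnb1 probe set does so except with median centring, while the other 5 probe sets, those of Cdk2, Cdk4, Plk1 and Mxd3 and the dimmer one of Ccnb1, have points on both sides.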

How the data were processed

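RNA of 4 induced and 4 uninduced samples was read on 8 arrays. The deposited table holds 1 intensity per probe set and array, on a linear scale; all trimmed means (2% from each end) lay between 500.8 and 500.9, so the authors had scaled the arrays. There are no detection calls, and the program that made the signals is not given in the sources used here. Genes were named from the platform annotation (1 symbol for 7018 probe sets, several for 308, none for 1473); a probe set can also bind close relatives. Signals were transformed to log2 after adding 7, their rounded 10th percentile. Left out were 59 controls and the 2611 other probe sets with a mean signal under the 30th percentile of the probe set means (36.0). Groups were compared with limma 3.58.1 in R 4.3.3 (lmFit, eBayes with trend), with Benjamini-Hochberg adjustment over all 6129 probe sets. The fit was also run on simulated independent values with changes of 1 or 2 log2 units. Smaller changes, such as most of the called member differences, were not simulated. Errors of differences are SEs and of signals SDs; the number of arrays limits the precision. Members and gene lists were chosen with earlier results of these data known. Named are all members, the 4 genes of lowest p in each list and any call against the list's direction, and the 3 genes most like each member whose brightest probe set was called. Alternatives changed the added constant, filter, normalization, trend, blocks and arrays used.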

Additional observations from a re-analysis of the deposited data

Results flagged for a closer look

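In 5 of the 52 groups of 4 values examined, 1 array stood apart from the other 3 by more than Dixon's 95% critical value; chance flags about 5% of such groups. The dimmest Ccnd1 probe set (rc_AI231257_at) read 36.0 in uninduced replicate 2, with 8.5 to 11.6 in the other uninduced replicates, all within the low-signal controls. The brighter Ccnd2 probe set read 238.6 in induced replicate 1 and 409.1 to 418.7 in the other induced replicates, and the other Ccnd2 probe set read 368.1 in uninduced replicate 1 and 185.8 to 210.8 in the other uninduced replicates. Cdkn1b read 58.6 in uninduced replicate 4 and 13.1 to 19.4 in the others. The within-array log2 ratio of Cdk1 to Cdk2 was 2.60 in uninduced replicate 4 and 2.17 to 2.19 in the other uninduced replicates.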

How the results depend on the processing

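Signs of all 7 called member differences were kept in all 19 alternatives, but calls were not. Median centring called 230 probe sets (63 lower, 167 higher), 1 member probe set (Cdk1), and 8 other cell cycle genes lower and 1 higher (Cdkn1a, with Ccng1 lost here and wherever 1 is given below). Centring over tested probe sets only, chosen after seeing the data, called 350 probe sets (122 lower, 228 higher), 3 member probe sets and 1 other gene higher. Without the intensity trend there were 279 calls (101 lower), 2 member probe sets (Cdk1 and the brighter Ccnb1) and 1 other gene higher. Leaving out both arrays numbered 2, whose source label is worded differently, gave 221 (80 lower, 141 higher), 3 member probe sets (Cdk1, Cdk4 and the brighter Ccnb1), and 9 other genes lower and 1 higher; 3 arrays against 3 cannot give a permutation p under 0.10. Without 1 array, calls ranged from 313 to 408 (112 to 164 lower, 191 to 244 higher), member probe sets from 3 to 6, other cell cycle genes from 14 to 15 lower and 1 to 2 higher, and pairs passing were 0 each time. That count of pairs was limited by the smallest permutation p the splits can give, as with all 8 arrays. Member calls were 3 without uninduced replicate 2 and 4 without uninduced replicate 1, uninduced replicate 3 or induced replicate 4. Not all of these calls were among the 7. The 4 without uninduced replicate 1 include a Ccnd1 probe set called higher (D14014_at). The 6 without uninduced replicate 4 include a Ccnd3 probe set called lower (D16309_g_at). The cause of these changes was not tested. Same-numbered arrays correlated between -0.14 and 0.19 in their deviations from the group means, with 1 of 4 pairs over 0.1, so the numbers were not taken as pairing; with the replicate number as a block 367 probe sets and 6 member probe sets were called; the dimmer Ccnb1 probe set was lost (adjusted p = 0.0741).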
